A study of Mus musculus with 8 samples.

Results

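The genes described are those for the receptors of serotonin (Htr), dopamine (Drd), noradrenaline and adrenaline (Adra and Adrb) and the muscarinic receptors of acetylcholine (Chrm). They were taken by symbol from the count tables, as every Htr1 to Htr7, Drd1 to Drd5, Adra1, Adra2, Adrb and Chrm1 to Chrm5 gene except Htr3a, which gave 32 of the 55341 genes listed. RNA had been measured in nuclei of cortical GABAergic neurons, the inhibitory neurons of the cortex, from juvenile mice in which a Cre-dependent reporter marks these neurons with a nuclear fluorescent protein. The labels do not name the Cre line or the exact age. All mice were hypothyroid, because their mothers had received propylthiouracil (PTU), a blocker of thyroid hormone synthesis, during gestation. In the PTU group (mice 9 to 12, n = 4) nothing else was given, and in the PTU+TH group (mice 13 to 16, n = 4) thyroid hormone (TH) was injected into the peritoneum 24 h before the brain was taken. There was no group of mice with normal thyroid hormone, so the comparison is of hypothyroid mice with and without hormone for 24 h. Each library came from 1 mouse.

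These receptors let axons from the brain stem, the ventral midbrain and the basal forebrain set the excitability of cortical circuits. All but the Htr3 channels are G protein-coupled receptors. Those coupled to Gs raise cyclic AMP, those coupled to Gi/o lower it and open GIRK potassium channels, and those coupled to Gq activate phospholipase C, which releases calcium from internal stores through inositol trisphosphate receptors. In cortical inhibitory neurons, alpha-1 adrenergic receptors and several muscarinic and serotonin receptors are known to depolarise the cell, while muscarinic M2 receptors at axon terminals are known to reduce transmitter release.

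Library totals ranged from 21762810 to 29084071 counts. Levels are given in CPM, the count scaled to a common library total after adjustment by the trimmed mean of M values. The pan-GABAergic list (Gad1, Gad2, Slc32a1 and 7 others, with Dlx1 and Dlx6 at 0 but wholly overlapped by other genes) summed to between 4803 and 6011 CPM in PTU mice and between 4709 and 5682 CPM in mice given TH. The largest part was Adarb2 (2002 to 3599 CPM), a gene of 566 kb that marks 1 interneuron lineage, while Gad1 and Gad2 stood at 389.4 to 546.4 and 392.4 to 481.3 CPM. The excitatory neuron list summed to 244 to 280 CPM in PTU mice and 242 to 329 CPM in mice given TH, with 15.8 to 57.9 CPM of its defining gene Slc17a7, so that most of the sum came from its other genes. The astrocyte list summed to 139 to 258 CPM in PTU mice and 140 to 389 CPM in mice given TH. For the oligodendrocyte list these were 96.3 to 124 and 94.5 to 194 CPM, and both lists were highest in PTU+TH mouse 15. Counts of 4 Y-linked genes summed to 0 in PTU+TH mice 15 and 16 and to between 7960 and 11548 in the other 6 libraries. Sex, as read from these counts, was thus unbalanced between the groups, and in mice 15 and 16 it cannot be told apart from TH. Among genes of at least 1 CPM, PTU mice 11 and 12 stood above PTU mice 9 and 10 by a median log2 ratio of 0.41 for the 1503 genes with bodies over 150 kb and by -0.23 for the 3866 genes under 10 kb. Between PTU+TH and PTU the same medians were 0.014 and 0.015.

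Of the 32 receptor genes, 25 had enough counts to be tested. Adra1a rose in PTU+TH, and it was the 1 gene of the 25 that passed the test, an edgeR quasi-likelihood test with Benjamini-Hochberg adjustment over all 17355 genes tested. That is 4% of the receptor genes, beside 2.12% of all genes tested (1.49% higher and 0.634% lower in PTU+TH). By edgeR, DESeq2 and limma voom alike, 0 receptor genes were called lower. At an unadjusted p under 0.05 in the same edgeR test there were 9 receptor genes (36%), 6 higher and 3 lower, where all genes gave 12.8% (6.59% higher and 6.17% lower). The 6 were Adra1a, Chrm2, Htr1d, Chrm3, Chrm4 and Adra1d, and the 3 were Htr2c, Htr6 and Htr7. The 4 libraries of one group lay wholly above those of the other for 4 of the 25 receptor genes (16%), beside 8.71% of all genes. These were Adra1a, Chrm2 and Htr1d, with PTU+TH above (4.68% of all genes), and Htr6, with PTU+TH below (4.03% of all genes). The median log2 fold change was 0.08 over the 25 receptor genes and -0.007 over all genes. By family, 6 of 8 tested adrenergic, 3 of 4 muscarinic, 2 of 3 dopamine and 4 of 10 serotonin receptor genes had a positive log2 fold change.

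**Figure D1:**
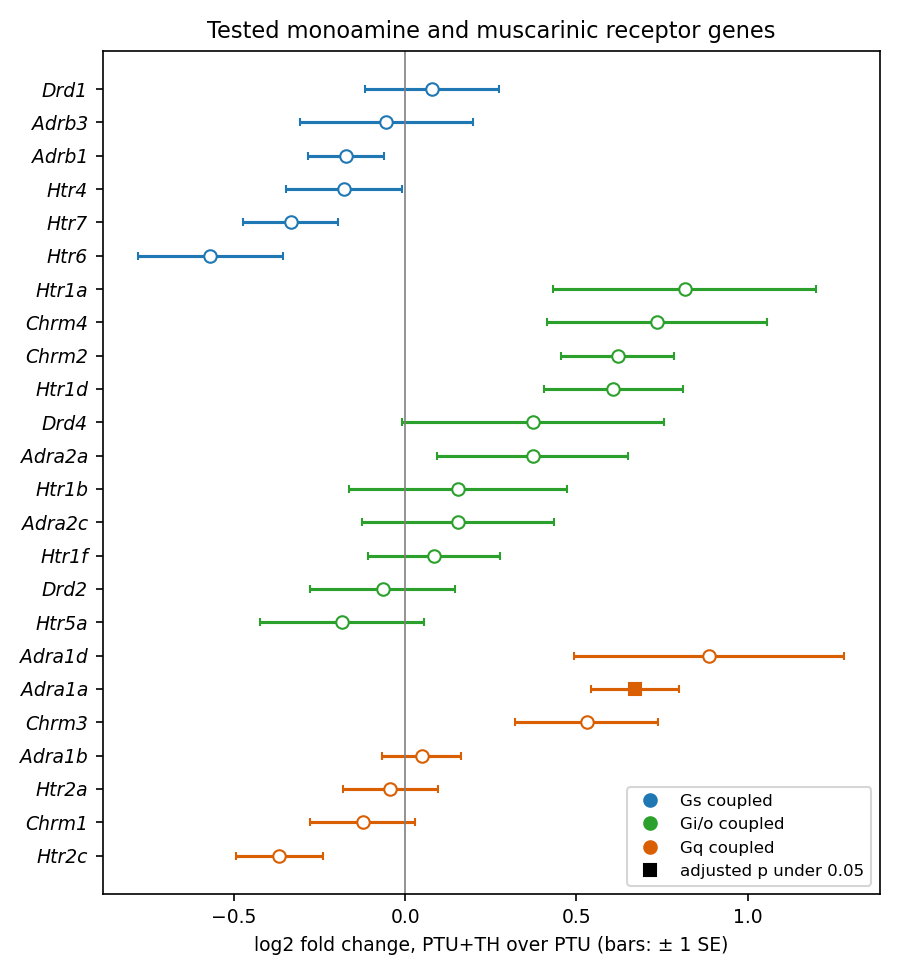
Log2 fold change of PTU+TH over PTU for 24 of the 25 tested receptor genes, grouped by G protein coupling, with bars of 1 SE from edgeR (n = 4 libraries per group). The filled square is Adra1a at 0.67, the 1 gene with an adjusted p under 0.05.

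Among the Gq-coupled receptors, 7 of 9 genes were tested and 4 of these had a positive log2 fold change. Adra1a (chromosome 14, 66635251 to 66771168, GRCm38) encodes the alpha-1A adrenergic receptor, through which noradrenaline excites many cortical interneurons. Its level was 84.15, 90.85, 125.8 and 109.4 CPM in PTU mice 9 to 12 and 155.1, 148.7, 160.1 and 188.7 CPM in PTU+TH mice 13 to 16. Every PTU+TH library lay above every PTU library, with PTU mouse 11 the highest of its group. The mean went from 102.6 ± 18.8 to 163 ± 17.7 CPM (SD, n = 4 in each group), a 1.59-fold rise (log2 fold change 0.67 ± 0.13 SE, adjusted p = 0.0149 by edgeR). The call was lost without PTU+TH mouse 15 (log2 fold change 0.68, adjusted p = 0.0522 by edgeR), without PTU+TH mouse 16 (0.59, edgeR adjusted p = 0.0599) and in the 6 libraries that had Y-linked counts (0.57, edgeR adjusted p = 0.241). In such bulk libraries, more cells that express a gene and more RNA of it per cell cannot be told apart. Summed markers of the PV class, fast-spiking parvalbumin neurons (8 genes, Cox6a2 at 0 but wholly inside another gene), ranged from 1847 to 3327 CPM in PTU mice and from 2134 to 3168 CPM in mice given TH, and most of this was Kcnc2 (2128 and 2090 CPM on average). Of that list 1 gene passed, Syt2, which rose 2.22-fold (adjusted p = 0.00603 by edgeR). The SST class summed to 1293 to 1759 and 1054 to 1416 CPM, and 1 of its 8 genes passed, Calb1, which fell to 0.604 of its PTU level (adjusted p = 0.00328 by edgeR). The VIP and CCK class summed to 410 to 674 and 436 to 466 CPM, with 7 of 8 log2 fold changes negative and 1 gene called lower, Htr3a. The LAMP5 class summed to 1312 to 1425 and 1195 to 1359 CPM, with 1 of 7 tested genes called higher, Gabrd (2.63-fold). The part of class composition in the rise of Adra1a was not tested.

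The other alpha-1 genes differed in level and in pattern. Adra1b, for the alpha-1B receptor, stood at 44.1 CPM in PTU mouse 9 and at 33.9 to 34.0 CPM in the other PTU libraries, with 37.7, 33.2, 38.3 and 41.9 CPM in mice given TH (log2 fold change 0.05 ± 0.12 SE, adjusted p = 0.935 by edgeR). Adra1d, for the alpha-1D receptor, was scarce, with 40, 18, 48 and 15 counts in PTU and 46, 82, 42 and 59 counts in PTU+TH. Its log2 fold change of 0.89 was larger than that of Adra1a, but so was its SE of 0.395, and it was not called (adjusted p by edgeR = 0.362).

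Chrm3 (chromosome 13, 9875486 to 10360847), for the muscarinic M3 receptor, gave the most counts of all 32 genes. It stood at 326, 406, 639 and 566 CPM in PTU mice 9 to 12 and at 576, 638, 703 and 880 CPM in PTU+TH mice 13 to 16. The groups overlapped, because PTU mouse 11 lay above PTU+TH mice 13 and 14. The means were 484 ± 143 and 699 ± 131 CPM (SD, n = 4 in each group), a log2 fold change of 0.53 (SE 0.21) that was not called (adjusted p by edgeR = 0.278). Chrm3 has the longest body of these genes, 485 kb, and its PTU values split as long genes did in that group, with mice 11 and 12 above mice 9 and 10. Within mice 9, 10, 13 and 14 the mean went from 366 to 607 CPM, and within mice 11, 12, 15 and 16 from 602 to 792 CPM. With these sets of mice as a covariate it was called higher (log2 fold change 0.56, adjusted p = 0.0182 by edgeR), as with a correction for gene body length (0.51, edgeR adjusted p = 0.00173). The labels do not say that mouse number marks a batch. Within mice 11, 12, 15 and 16, Y-linked counts were absent in the mice given TH and present in the others. The sets of mice as a covariate therefore cannot separate sex from TH.

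Chrm1, for the M1 receptor, did not follow Chrm3. Its level was 64.1, 54.5, 40.1 and 37.7 CPM in PTU mice and 46.7, 47.4, 46.6 and 39.5 CPM in mice given TH (log2 fold change -0.12 ± 0.15 SE, adjusted p = 0.84 by edgeR). The serotonin receptor gene Htr2a, whose product is known from excitatory neurons and from interneurons alike, stood at 57.45, 55.25, 63.78 and 69.98 CPM in PTU mice and 48.45, 52.08, 61.33 and 77.38 CPM in mice given TH, with overlapping groups (log2 fold change -0.04 ± 0.14 SE, adjusted p = 0.957 by edgeR). Htr2c was at 28.5, 31.7, 32.5 and 42.6 CPM in PTU mice and 26.0, 24.5, 28.9 and 25.5 CPM in mice given TH. PTU+TH mouse 15 lay just above the lowest PTU library, and the log2 fold change of -0.37 (SE 0.13) was not called (adjusted p by edgeR = 0.204).

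**Figure D2:**
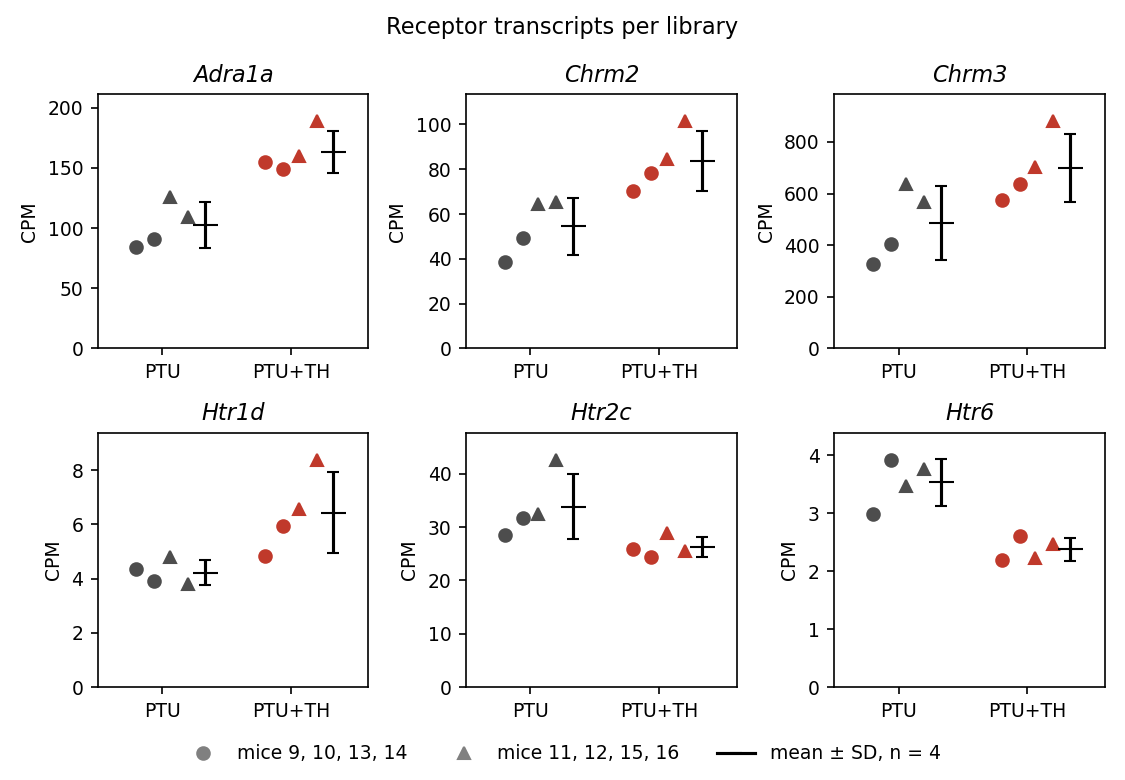
CPM of 6 receptor genes in each library, with circles for mice 9, 10, 13 and 14, triangles for mice 11, 12, 15 and 16, and a bar for the mean and SD of each group (n = 4). The PTU+TH libraries lie above all PTU libraries for Adra1a, Chrm2 and Htr1d and below them for Htr6, while the groups overlap for Chrm3 and Htr2c.

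Among the Gi/o-coupled receptors, 11 of 14 genes were tested, 9 had a positive and 2 a negative log2 fold change, and 0 were called by edgeR, with 3 at an unadjusted p under 0.05 (1 called by DESeq2, 0 by limma voom). Chrm2 (chromosome 6, 36388084 to 36528414) encodes the M2 receptor. It stood at 38.8, 49.4, 64.3 and 65.4 CPM in PTU mice 9 to 12 and at 70.2, 78.35, 84.68 and 101.4 CPM in PTU+TH mice 13 to 16, without overlap. The means were 54.5 ± 12.8 and 83.7 ± 13.2 CPM (SD over 4 mice per group; log2 fold change 0.62 ± 0.16 SE, adjusted p = 0.0844 by edgeR). It passed with DESeq2 (adjusted p = 0.0165), with library totals as the only scaling (adjusted p by edgeR = 0.0361), with the sets of mice as a covariate (adjusted p by edgeR = 0.00271) and with the length correction (adjusted p by edgeR = 0.00453). It did not pass under the other 15 alternatives, with a log2 fold change of 0.45 in the 6 libraries that had Y-linked counts (edgeR adjusted p = 0.552) and of 0.515 when PTU+TH mouse 16 was left out (edgeR adjusted p = 0.237). Its sister gene Chrm4, for the M4 receptor, gave 45, 34, 17 and 42 counts in PTU and 51, 65, 74 and 34 counts in PTU+TH (log2 fold change 0.735 ± 0.32 SE, adjusted p = 0.346 by edgeR).

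The Gi/o-coupled serotonin receptors act at cell bodies (Htr1a) and at terminals (Htr1b, Htr1d), where they hold back firing and release. Htr1d stood at 4.37, 3.91, 4.80 and 3.805 CPM in PTU mice and at 4.85, 5.95, 6.59 and 8.38 CPM in mice given TH. The groups did not overlap, though PTU mouse 11 and PTU+TH mouse 13 were close, and the gene was not called (log2 fold change 0.61 ± 0.20 SE, adjusted p = 0.185 by edgeR). Htr1a was at 5.90, 4.25, 1.73 and 1.53 CPM in PTU mice and 4.76, 5.60, 8.13 and 5.38 CPM in mice given TH. Only PTU mice 11 and 12 were low, PTU mouse 9 lay above 3 of the PTU+TH libraries, and the log2 fold change of 0.82 carried an SE of 0.38 (adjusted p by edgeR = 0.41). Htr1f, an abundant transcript at 50.3 ± 11.9 CPM in PTU mice and 53.3 ± 12.5 CPM in mice given TH (SD, n = 4 in each group), had a log2 fold change of 0.08 (SE 0.19, edgeR adjusted p = 0.932). Htr1b and Htr5a had log2 fold changes of 0.155 and -0.185, with SEs of 0.32 and 0.24 (adjusted p by edgeR = 0.922 and 0.85). Htr1b shares 41.1% of its body with an antisense gene, and the use of strand in counting is not given in the sources used here, so its counts are uncertain.

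The alpha-2 adrenergic receptors, the autoreceptors of noradrenaline neurons that also act on their targets, were seen in both groups. Adra2a stood at 11.3, 7.19, 3.86 and 5.38 CPM in PTU mice and at 7.63, 7.84, 11.3 and 9.28 CPM in mice given TH (log2 fold change 0.37 ± 0.28 SE, adjusted p = 0.671 by edgeR). Adra2c showed the same low values in PTU mice 11 and 12, with 9.07, 6.925, 4.40 and 3.24 CPM against 6.28, 6.81, 7.95 and 5.38 CPM in mice given TH (log2 fold change 0.15 ± 0.28 SE, adjusted p = 0.91 by edgeR). Both are single-exon genes. Among the dopamine receptors of this coupling, Drd2 stood at 13.85 ± 4.53 CPM in PTU mice and 13.2 ± 2.01 CPM in mice given TH (SD over 4 mice per group; log2 fold change -0.07 ± 0.21 SE, adjusted p = 0.957 by edgeR), and Drd4 at 0.7775 ± 0.273 and 1.00 ± 0.237 CPM (log2 fold change 0.37 ± 0.38 SE, adjusted p = 0.788 by edgeR).

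The Gs-coupled receptors had 7 of 8 genes tested, 2 with a positive and 5 with a negative log2 fold change, and 0 were called by edgeR, with 2 at an unadjusted p under 0.05 (0 called by DESeq2 or limma voom). Those 2 were serotonin receptors. Htr6 stood at 2.99, 3.91, 3.46 and 3.76 CPM in PTU mice and at 2.19, 2.61, 2.23 and 2.48 CPM in mice given TH, without overlap (log2 fold change -0.57 ± 0.21 SE, adjusted p = 0.243 by edgeR). Htr7 stood at 26.05, 18.97, 25.88 and 26.33 CPM in PTU mice and at 18.0, 17.95, 17.81 and 23.37 CPM in mice given TH. PTU mouse 10 and PTU+TH mouse 16 each stood apart from their group, so that the groups overlapped, and the log2 fold change was -0.33 (SE 0.14, edgeR adjusted p = 0.319). The third, Htr4, had a log2 fold change of -0.18 (SE 0.17, edgeR adjusted p = 0.763), with 30.78, 30.45, 46.76 and 46.97 CPM in PTU mice and 30.4, 32.1, 31.3 and 42.9 CPM in mice given TH. The median log2 fold change was -0.17 over the 7 Gs-coupled, 0.37 over the 11 Gi/o-coupled and 0.05 over the 7 Gq-coupled genes, and the difference between couplings was not tested.

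The beta adrenergic and D1-type dopamine receptors also couple to Gs. Adrb1, for the main beta receptor of the cortex, varied little, with 19.9, 18.4, 20.9 and 19.4 CPM in PTU mice and 16.1, 19.2, 17.6 and 16.7 CPM in mice given TH (log2 fold change -0.17 ± 0.11 SE, adjusted p = 0.592 by edgeR). Adrb3 had a log2 fold change of -0.055 (SE 0.253, edgeR adjusted p = 0.972) and is free of an antisense gene over 53.1% of its body. Drd1 stood at 16.5, 17.9, 10.3 and 12.6 CPM in PTU mice and 12.8, 12.0, 18.9 and 17.1 CPM in mice given TH (log2 fold change 0.08 ± 0.20 SE, adjusted p = 0.941 by edgeR). Drd1 and Drd2 also mark striatal projection neurons. A list of 10 other genes of those neurons summed to 479 to 916 CPM in PTU mice and 497 to 776 CPM in mice given TH. Of that list, Adora2a and Ppp1r1b were low, at 0.381 to 2.597 and 0.172 to 0.970 CPM, and Isl1 was at 0 in all 8 libraries. Ppp1r1b is free of other genes over 24.6% of its body. The part of striatal RNA in the levels of Drd1 and Drd2 was not tested.

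The other 7 receptor genes had too few counts for the test. Chrm5 (chromosome 2, 112479171 to 112480769), for the M5 receptor, gave 15, 5, 14 and 10 counts in PTU and 1, 1, 0 and 0 counts in PTU+TH. Its 44 counts against 2 are a ratio of 21.7 in CPM of PTU over PTU+TH, with an exact (Clopper-Pearson) 95% interval from 5.66 to 185 that covers counting error only. It failed the filter on low counts, and was called lower when every gene with a count was tested (adjusted p by edgeR = 0.0198). With fewer PTU+TH libraries it passed the filter only through the PTU group, where it was high, so those fits are not read for this gene. Htr3b, a subunit of the serotonin-gated channel, gave 11, 22, 5 and 4 counts in PTU and 0, 11, 0 and 2 counts in PTU+TH, with overlapping groups. The ratio in CPM of PTU over PTU+TH was 3.19 (exact 95% interval 1.68 to 6.47, again of counting error only). When every gene with a count was tested, Htr3b was not called (log2 fold change -1.685, adjusted p = 0.56 by edgeR). Its partner subunit Htr3a, which is not among the 32 genes, went from 7.815 ± 2.38 to 3.635 ± 0.895 CPM (SD over 4 mice per group; log2 fold change -1.11, adjusted p = 0.0344 by edgeR). Drd5, Drd3, Htr5b and Adra2b totalled 65, 36, 28 and 9 counts over the 8 libraries. Htr2b lies wholly inside the gene Psmd1 and was listed at 0 in all libraries. Of 681 protein-coding genes that lie inside another gene without sharing an exon, 680 were listed at 0, so the 0 of Htr2b says nothing about its expression.

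That pattern of zeros is what counting over whole gene bodies, with reads in overlaps set aside, would give, so levels were compared between genes per kb of body free of other genes. On this scale the order differed from that in CPM. Drd1 was first at 3.26 CPM per kb over the 8 libraries, followed by Chrm1 at 2.42, Adra2c at 1.82, Adrb1 at 1.70 and Adra2a at 1.65 CPM per kb. Chrm3, first in CPM, was at 1.27 CPM per kb, and Adra1a at 0.977, Htr2a at 0.884 and Chrm2 at 0.50 CPM per kb. The lowest tested genes were Htr2c at 0.128 and Adra1d at 0.116 CPM per kb. Exons make up 3.63 of the 4.52 kb of Drd1 and the whole body of Adra2c and Adra2a, but 6.25 of the 485 kb of Chrm3. Reads of exons and introns were not told apart, so this order does not rank the receptors by their amount of RNA. Each gene in the order of the 25 tested genes overlapped the next in its range over libraries, so no pair of neighbours was set apart beyond its spread. In CPM, Chrm3 alone gave between 39.1% and 55.4% of the summed level of the 32 genes, and Chrm3, Adra1a, Chrm2 and Htr2a together between 60.8% and 78.5%.

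**Figure D3:**
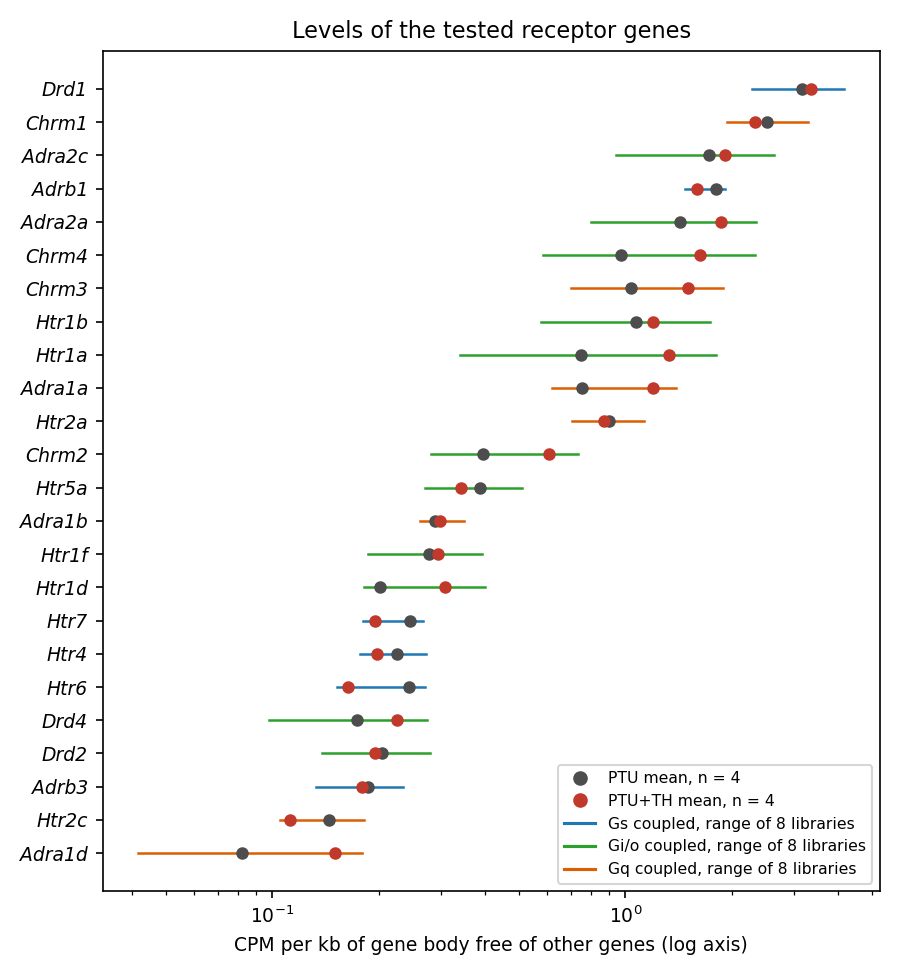
Level of 24 of the 25 tested receptor genes in CPM per kb of gene body free of other genes, on a log axis, with the mean of each group (n = 4) as points and the range of the 8 libraries as a line coloured by coupling. Drd1 and Chrm1 lie highest, at 3.26 and 2.42 CPM per kb over all libraries, and the ranges of neighbours overlap.

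The receptor genes varied with body length within the PTU group. Of the 8 tested genes with bodies under 10 kb, 6 were lower in PTU mice 11 and 12 than in PTU mice 9 and 10, with a median log2 ratio of -0.79. Htr1a, Adra2c, Htr1b and Adra2a showed it most, at -1.64, -1.07, -1.02 and -0.997, while Drd4, with few counts, went the other way at 0.84. Of the 10 tested genes of at least 50 kb, 9 were higher in mice 11 and 12, with a median of 0.41, and Adra1b was lower at -0.20. Over the same 2 classes the median log2 fold change of PTU+TH over PTU was 0.37 and 0.003. With a correction for body length, chosen after this was seen, Adra1a kept its size (log2 fold change 0.66, adjusted p = 0.000277 by edgeR), and the log2 fold changes of the 25 genes kept their direction. Summed astrocyte markers also split within PTU, at 249, 258, 193 and 139 CPM in mice 9 to 12. Oligodendrocyte, oligodendrocyte precursor and endothelium lists were likewise lower in mice 11 and 12. Those of excitatory neurons and microglia overlapped, and the striatal list was higher. The part of cell composition in these shifts was not tested.

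**Figure D4:**
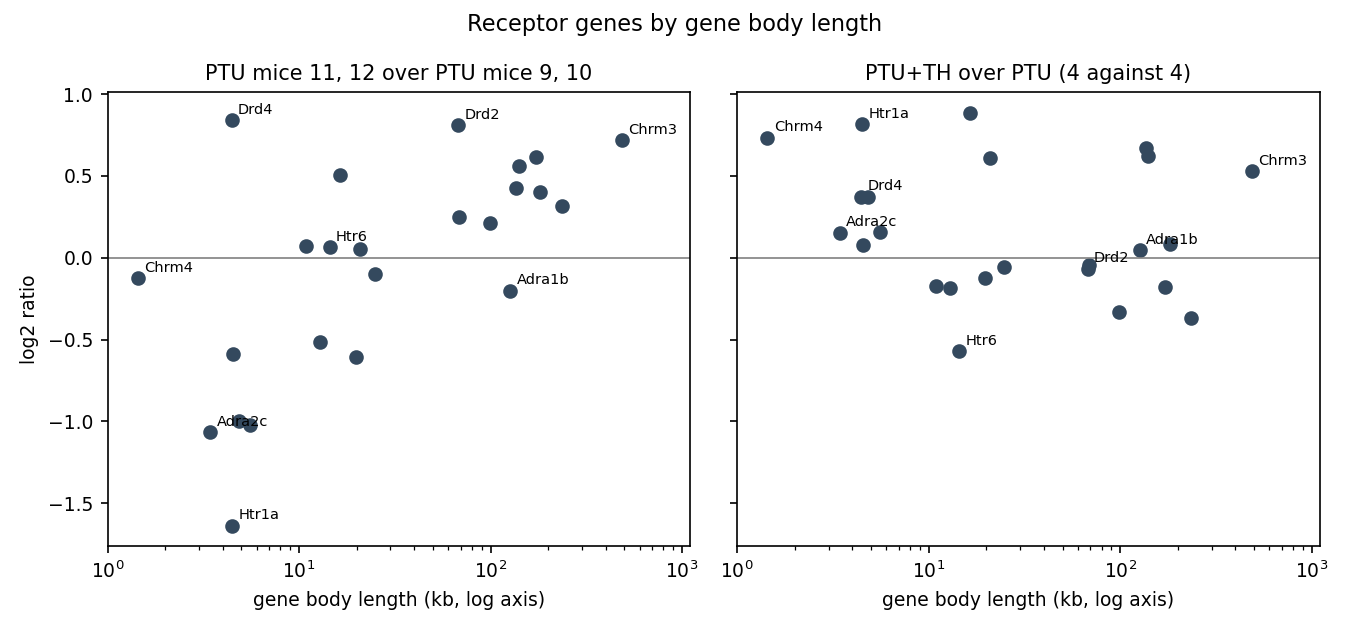
Log2 ratio of 24 of the 25 tested receptor genes against gene body length in kb (log axis), for PTU mice 11 and 12 over PTU mice 9 and 10 (left) and for PTU+TH over PTU (right). Within PTU the lowest gene is Htr1a at -1.64 and the longest, Chrm3, lies at 0.72, and between PTU+TH and PTU these genes lie at 0.82 and 0.53.

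The stretch before the start site was at hand for 25 of the 32 genes in the set of RefSeq promoters (GRCm38.p6) used here, and Adra1a was not among them. Windows of 250 bases are shown for 5 genes, chosen after their values were seen: Chrm2 and Chrm3, called higher under 4 and 2 of 19 alternatives, Chrm5, called lower without a filter, and Htr2c and Htr6, lower at an unadjusted p under 0.05. The motif AGGTCA, the half-site to which thyroid hormone receptors are known to bind, was searched on both strands and is in capitals where found. The windows are chr6:36387834-36388083 on the plus strand for Chrm2, chr13:10360804-10361053 on the minus strand for Chrm3, chrX:146962263-146962512 on the plus strand for Htr2c, chr4:139075571-139075820 on the minus strand for Htr6 and chr2:112480818-112481067 on the minus strand for Chrm5.
Chrm2: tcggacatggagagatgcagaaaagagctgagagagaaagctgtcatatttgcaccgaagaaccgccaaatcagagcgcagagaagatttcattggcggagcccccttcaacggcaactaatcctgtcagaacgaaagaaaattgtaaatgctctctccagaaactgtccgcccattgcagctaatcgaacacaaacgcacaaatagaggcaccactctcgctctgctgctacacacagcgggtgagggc
Chrm3: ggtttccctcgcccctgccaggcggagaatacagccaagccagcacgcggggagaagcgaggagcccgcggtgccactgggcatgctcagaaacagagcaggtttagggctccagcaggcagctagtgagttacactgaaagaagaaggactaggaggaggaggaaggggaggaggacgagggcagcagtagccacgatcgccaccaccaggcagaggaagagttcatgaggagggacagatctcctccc
Htr2c: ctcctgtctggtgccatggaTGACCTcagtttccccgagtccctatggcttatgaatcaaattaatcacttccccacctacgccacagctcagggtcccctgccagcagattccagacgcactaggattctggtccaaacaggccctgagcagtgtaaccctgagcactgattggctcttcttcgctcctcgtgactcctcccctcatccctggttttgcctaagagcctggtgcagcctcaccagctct
Htr6: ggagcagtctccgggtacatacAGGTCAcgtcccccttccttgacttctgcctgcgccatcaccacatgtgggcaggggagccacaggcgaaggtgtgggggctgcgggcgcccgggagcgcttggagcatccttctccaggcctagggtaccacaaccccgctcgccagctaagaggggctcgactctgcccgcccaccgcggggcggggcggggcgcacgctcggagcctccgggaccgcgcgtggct
Chrm5: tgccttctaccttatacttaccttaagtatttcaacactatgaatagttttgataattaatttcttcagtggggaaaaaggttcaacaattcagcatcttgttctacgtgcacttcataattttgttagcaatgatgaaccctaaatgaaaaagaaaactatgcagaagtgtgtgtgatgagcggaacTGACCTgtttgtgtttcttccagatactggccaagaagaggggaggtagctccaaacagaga
The Chrm2 and Chrm3 windows, of the genes with higher PTU+TH means, held 0 matches. The windows of Htr2c, Htr6 and Chrm5, whose PTU+TH means were lower, held 1 match each, at 230 to 225, 228 to 223 and 62 to 57 bases before the start. Adra2c, with the higher mean in PTU+TH, and Htr2b, which could not be read, had a match too. Windows of Htr7, also lower at an unadjusted p under 0.05, and of Htr1d and Chrm4, higher at that threshold, held 0 matches and are not shown. Htr1a had 0 matches as well. In all, the motif was in 6 of the 29 windows of these genes (20.7%), beside 14.0% of all 32851 windows of this length in the table, or in 5 of the 25 genes (20.0%), beside 15.8% of all 27025 genes with a window. Another start of Htr6 also had a match, at 103 to 98 bases before it. The letters are a description of these windows and not of binding.

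The signalling partners of these receptors were followed in lists of G protein subunits, effectors, regulators and handling genes. Of 102 genes, 92 were tested, and 5 passed (5.43%, beside 2.12% of all genes), 4 higher and 1 lower in PTU+TH. In the Gq and phospholipase C list 2 of 18 tested genes rose and 0 fell (median log2 fold change 0.075). Itpr1, for the inositol trisphosphate receptor that releases calcium downstream of Gq, stood at 147, 170, 193 and 188 CPM in PTU mice and 321, 327, 297 and 356 CPM in mice given TH (log2 fold change 0.90 ± 0.11 SE, adjusted p = 0.000916 by edgeR). Prkcb, for a protein kinase C activated on the same route, rose from 301 ± 21.7 to 435 ± 34.1 CPM (SD over 4 mice per group; log2 fold change 0.53 ± 0.11 SE, adjusted p = 0.0254 by edgeR). Itpr1 was called under all 19 alternatives, while Prkcb lost its call in the 6 libraries that had Y-linked counts (adjusted p = 0.318 by edgeR) and without PTU mouse 10 or 12 or PTU+TH mouse 14, 15 or 16, with edgeR adjusted p-values from 0.0596 to 0.095. Neither overlapped between groups, and both lie on the pathway of Adra1a and Chrm3. The most abundant genes of that list, Plcb1 and Dgkg, had log2 fold changes of 0.105 and -0.44 (adjusted p by edgeR = 0.92 and 0.247).

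Of 15 tested RGS genes, whose products speed the switching-off of G proteins, 1 rose and 1 fell (median -0.07). Rgs10 stood at 8.01, 6.59, 5.15 and 5.38 CPM in PTU mice and 16.5, 17.1, 13.6 and 12.6 CPM in mice given TH (log2 fold change 1.25 ± 0.18 SE, adjusted p = 0.00228 by edgeR). Rgs10 is also a microglial gene. The microglia list (7 genes, P2ry12 at 0 but wholly inside another gene) summed to 11.2 to 17.1 CPM in PTU mice and 15.4 to 31.3 CPM in mice given TH, with its highest value in mouse 15, whereas Rgs10 was highest in mice 13 and 14. The part of microglial RNA in the rise was not tested. Rgs12 fell from 91.9 ± 9.03 to 65.3 ± 7.69 CPM (SD over 4 mice per group; log2 fold change -0.49 ± 0.10 SE, adjusted p = 0.0267 by edgeR). Rgs12 lost its call in the 6 libraries (0.363), with library totals only (0.0838) and without PTU mouse 10 or 12 or PTU+TH mouse 14, 15 or 16, with edgeR adjusted p-values from 0.0787 to 0.102, and Rgs10 kept its call under all 19 alternatives. Rgs7 and Rgs6, the most abundant, had log2 fold changes of 0.25 and 0.69 (adjusted p by edgeR = 0.608 and 0.101).

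In the lists for Gs and cyclic AMP (25 tested, median 0.03), Gi/o and GIRK channels (13 tested, median 0.07) and receptor kinases and arrestins (7 tested, median -0.01), edgeR called 0 genes, with 3, 4 and 0 at an unadjusted p under 0.05. DESeq2 called 2, 2 and 0 of them and limma voom 0. The most abundant members there were Pde4d and Adcy1, Gnao1 and Gnb1, and Grk3 and Arrb1, with log2 fold changes of -0.08, 0.07, 0.07, 0.09, -0.26 and 0.20 and edgeR adjusted p-values of 0.945, 0.888, 0.918, 0.806, 0.444 and 0.394. Of 14 tested genes for the synthesis, transport and breakdown of monoamines and acetylcholine (median 0.07), 1 rose. This was Tph2, for the tryptophan hydroxylase of serotonin neurons, which was low in every library. It gave 1.02, 2.145, 1.63 and 1.40 CPM in PTU mice and 3.16, 3.09, 5.315 and 4.95 CPM in mice given TH (log2 fold change 1.41 ± 0.29 SE, adjusted p = 0.0243 by edgeR). The call was lost in the 6 libraries that had Y-linked counts (edgeR adjusted p = 0.386) and without PTU mouse 12 or PTU+TH mouse 15 or 16, with edgeR adjusted p-values from 0.0677 to 0.095. The list of genes that mark cholinergic and monoamine neurons (Chat, Slc18a3, Th, Dbh, Slc6a4 and Tph2) summed to 12.6 to 20.0 CPM in PTU mice and 26.7 to 32.2 CPM in mice given TH, without overlap, and Th gave most of this sum in every library. All 3 of its tested genes, Tph2, Chat and Th, had a positive log2 fold change (median 0.97), Tph2 alone was called, Slc18a3, at 0, lies wholly inside Chat and could not be read, and the serotonin transporter gene Slc6a4 was at 0.103 to 0.594 CPM. Slc5a7, for the choline transporter of cholinergic neurons, is outside that list of marker genes. It was lower in mice given TH without overlap, and was not called. The part of RNA from cholinergic and monoamine neurons in the rise of Tph2 was not tested. Ache, for acetylcholinesterase and the most abundant of the genes for synthesis, transport and breakdown, had a log2 fold change of 0.04 (edgeR adjusted p = 0.961).

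**Figure D5:**
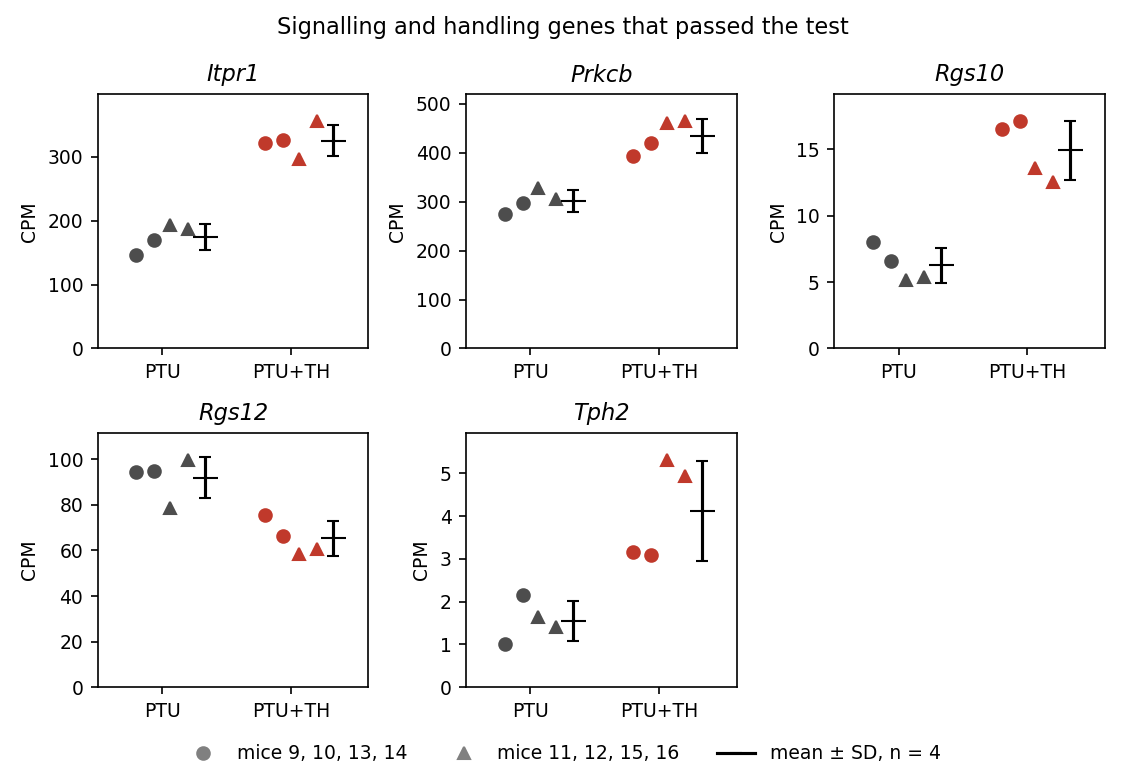
CPM in each library of the 5 signalling and handling genes that passed the test, with circles for mice 9, 10, 13 and 14, triangles for mice 11, 12, 15 and 16, and a bar for the mean and SD of each group (n = 4). The PTU+TH libraries lie above all PTU libraries for Itpr1, Prkcb, Rgs10 and Tph2 and below them for Rgs12.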

How the data were processed

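The deposited values are raw read counts by gene symbol, in 1 file for each mouse, with 0 rows that name no gene. Per the submitters' processing notes Bowtie2 2.5.3 and the builds mm10 and GRCm38 were used, with no role stated. The counting program, the annotation and the use of strand are not given in the sources used here. The 55341 symbols of the files were those of GENCODE M21 (GRCm38), which gave positions and lengths.

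Groups came from the sample titles. Libraries of a group differed beyond sampling noise (chi-square per degree of freedom 8.38 to 72.6 over 12 pairs). The test was the robust quasi-likelihood test of edgeR 4.0.16 (R 4.3.3) on these counts, with filterByExpr, TMM scaling and the group as the only term, and adjusted over 17355 genes. SEs are the size of the log2 fold change divided by the square root of F. Alternatives used DESeq2 1.42.0, limma 3.58.1 (voom), other scalings and filters, thinning to the smallest total, the sets of mice 9, 10, 13, 14 and 11, 12, 15, 16 as a covariate, the 6 libraries with Y-linked counts, each library left out and, added after seeing the data, a correction for gene body length (lowess span 0.3). On simulated data for PTU+TH against PTU, with 200 changed genes, 60% were recovered at a log2 fold of 1 (17040 genes) and 22% at 0.58 (17049 genes), so that smaller changes can be missed.

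The receptor genes and lists were chosen with earlier results of these data known. Named were the receptor genes, the called partners and the 2 most abundant genes of each partner list, of which 1 tested receptor gene and 1 partner, counted in the totals, are not reported here. Promoter windows came from RefSeq (GRCm38.p6).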

Additional observations from a re-analysis of the deposited data

Results flagged for a closer look

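For the receptor genes and the named partners, 96 sets of 4 values were searched for 1 mouse that stood apart from its group, and 5 were found where chance gives about 1 in 20, or 4.8 sets. Adra1b in PTU mouse 9 gave 44.1 CPM, the others 33.9 to 34.0 CPM. Chrm1 in PTU+TH mouse 16 gave 39.5 CPM, the others 46.6 to 47.4 CPM. Htr4 in PTU+TH mouse 16 gave 42.9 CPM, the others 30.4 to 32.1 CPM. Htr7 was apart in both groups, at 19.0 CPM in PTU mouse 10 against 25.9 to 26.3 CPM and at 23.4 CPM in PTU+TH mouse 16 against 17.8 to 18.0 CPM. The part of depth or of cell composition in these values was not tested.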

How the results depend on the processing

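No paired analysis was possible because no mouse number occurs in both groups. Of the 25 tested receptor genes, 15 kept the direction of their log2 fold change under all alternatives, up to 19 per gene, and 10 uncalled genes changed it under at least 1 (among them Adra1b, Adra2c, Adrb3, Chrm1, Drd1, Drd2, Htr1b, Htr1f and Htr2a). Against 1 receptor gene called, the count was 2 with library totals only, with DESeq2 and without a filter, 3 with the sets of mice as a covariate and with the length correction, and 0 in the 6 libraries that had Y-linked counts by edgeR (6 at an unadjusted p under 0.05). Leaving out a library gave from 0 to 2 receptor genes, the 2 by adding Chrm5, which passed the filter through PTU alone, and 0 without PTU+TH mouse 15 or 16 (edgeR, 8 and 8 at an unadjusted p under 0.05). Against 5 partner genes, the count was 13 with DESeq2, 11 with the sets of mice, 12 with the length correction, 2 in the 6 libraries and from 2 to 7 with a library left out. Itpr1 and Rgs10 were called under all 19 alternatives, and Prkcb, Rgs12 and Tph2 were not under 6, 7 and 4 of them, with edgeR adjusted p-values of up to 0.318, 0.363 and 0.386, the largest in the 6 libraries. Against 368 genes of all tested, the count was 756 with DESeq2, 642 with the sets of mice, 711 with the length correction, 58 in the 6 libraries and from 182 (without PTU+TH mouse 15) to 499 (without PTU mouse 9) with a library left out. The 6 libraries and the fits that leave out a library hold fewer mice by construction, and the cause of these differences was not tested. Genes under about 1 CPM, such as Drd4 and the untested ones other than Htr2b, are limited by depth.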

Other observations

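Of the 92 tested partner genes, 12 (13%) had groups that did not overlap, 10 with PTU+TH above and 2 below, beside 8.71% of all genes. Besides the 5 that passed the test these were Kcnj6, Kcnj9, Pde7b, Rgs6, Slc29a4 and Th, all above, and Slc5a7, below, and they are named after their values were seen. Kcnj6 and Kcnj9 encode subunits of the GIRK potassium channels opened through Gi/o. Kcnj6 gave 57.8, 77.5, 106.5 and 96.3 CPM in PTU mice against 110.6, 118.6, 137.2 and 155.9 CPM in mice given TH, and Kcnj9 gave 62.7, 55.8, 47.9 and 48.8 CPM against 72.2, 66.6, 82.5 and 67.9 CPM (adjusted p by edgeR = 0.101 and 0.0627). Kcnj3, the GIRK subunit gene with the highest level of these, overlapped between groups, at 125.4 to 194.2 CPM and 171 to 242.4 CPM (log2 fold change 0.30, adjusted p = 0.465 by edgeR). The phosphodiesterase gene Pde7b stood at 17.4 to 28.3 CPM in PTU mice and 29.5 to 52.6 CPM in mice given TH (log2 fold change 0.72, adjusted p = 0.0715 by edgeR), and Rgs6 at 131.8 to 270.5 and 287 to 363.5 CPM (log2 fold change 0.69, adjusted p = 0.101 by edgeR). Slc29a4, for a monoamine transporter, stood at 20.9 to 27.1 and 27.5 to 30.2 CPM (log2 fold change 0.30, adjusted p = 0.23 by edgeR). Slc5a7, for the choline transporter of cholinergic neurons, stood at 5.82 to 6.98 CPM in PTU mice and 3.45 to 5.47 CPM in mice given TH (log2 fold change -0.48, adjusted p = 0.281 by edgeR). Chat, for the enzyme that makes acetylcholine and the defining gene of those neurons, had a higher mean in PTU+TH with overlapping groups, at 1.53, 1.47, 2.08 and 3.54 CPM against 4.81, 4.88, 3.63 and 3.47 CPM (log2 fold change 0.97, adjusted p = 0.131 by edgeR). Th, for the rate-limiting enzyme of dopamine synthesis, gave 15.6, 15.7, 9.80 and 6.95 CPM in PTU mice against 23.1, 21.4, 17.4 and 19.3 CPM in mice given TH (log2 fold change 0.75, adjusted p = 0.133 by edgeR), while Dbh, which marks noradrenaline neurons, was at 0.136 to 0.675 CPM in the 8 libraries.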
